A study of Homo sapiens with 6 samples.

Results

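Metallothioneins are small, cysteine-rich proteins that bind zinc and copper, and with them toxic metals such as cadmium. Free zinc activates MTF1, a zinc-finger transcription factor that binds metal response elements in the promoters of the metallothionein genes and of SLC30A1, which encodes a zinc exporter of the plasma membrane. In epithelial cells these genes are known as a joint readout of zinc, although metallothionein genes also respond to glucocorticoids, oxidants and hypoxia. The genes examined were the metallothioneins MT1A, MT1E, MT1F, MT1G, MT1M, MT1X and MT2A together with MTF1 and SLC30A1, selected by symbol, 9 genes in all against a count table of 21776 genes. Of the 9 genes, 8 had a row in the table and 5 passed the filter on low counts; MT1M had no row among those used here and was not analysed.

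The data were RNA-seq libraries of SCC25, an established line of human oral squamous cell carcinoma cells labelled as wild type. The 3 hypoxia libraries came from cells kept for 12 h in 1% O2 and 5% CO2, and the 3 normoxia libraries from cells kept for 12 h in 5% CO2 and air. All 6 libraries share the line and the medium (DMEM/F12 with serum), and the labels do not say whether the replicates came from separate cultures, so p-values measure the spread between these libraries, which may be technical. The sample titles and the FPKM columns name SCC25, while the count columns name no line and were matched to the titles by condition and number. The study's text gives no single line for its transcriptome data, and a figure legend names SCC9 for the enrichment under hypoxia. The hypoxia libraries (replicates 1 to 3) held 30186813, 36076088 and 32272716 reads assigned to genes, and the normoxia libraries held 37278703, 29637189 and 29981208.

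The line carried epithelial transcripts, but not all of those tested. EPCAM, CDH1, KRT5 and TP63 each had 1499 counts or more in every library. KRT14, a basal keratin, had 1 count in normoxia replicate 2 and 0 in the other libraries. The summed level of the 8 squamous epithelial markers lay between 309.9 and 342 FPKM, a level per length of gene, in the 6 libraries, with EPCAM as the most abundant. Of these markers 7 were tested, with 3 higher and 3 lower, where 39.2% of all genes tested rose, 38.5% fell and 77.8% were called. KRT6A, a keratin of activated epithelium, went from 16.5 ± 3.86 to 0.951 ± 0.491 CPM (SD, n = 3), a log2-fold change of -4.12, while CDH1 (1.35), DSG3 (1.35) and KRT17 (1.06) had log2-fold changes above 0 and were called higher. PTPRC and CD3E, which define leukocytes, had at most 2 counts in any library, while CD14, a myeloid gene, rose from 1.07 ± 0.481 to 5.83 ± 0.445 CPM (SD, n = 3) and CD68 did not pass the test. Fibroblast markers summed to between 2.87 and 3.62 FPKM under hypoxia and between 0.484 and 0.934 FPKM under normoxia, with COL1A1 as the most abundant, while COL3A1 had at most 2 counts. The 3 endothelial markers summed to between 0.251 and 0.317 FPKM under hypoxia and between 0.0659 and 0.178 FPKM under normoxia, with CDH5, called higher (log2-fold change 1.14), as the most abundant. The part of these transcripts in the results was not tested. As a check of the labels, 8 of 8 known targets of the hypoxia response, EGLN3, BNIP3, PDK1, SLC2A1, ADM, VEGFA, NDRG1 and CA9, rose under hypoxia without overlap between the groups, where 40.6% of all genes tested were higher without overlap. Normoxia replicate 3 stood apart from the other normoxia libraries in these genes. Its level of NDRG1 was 409 CPM against 163 and 140.4 CPM in normoxia replicates 1 and 2, that of CA9 67.7 against 32.2 and 27.3 CPM and that of EGLN3 10.7 against 5.86 and 3.74 CPM. It was the highest normoxia library for all of the 8 genes but ADM. Calls of the examined genes and of the zinc transporters that rest on this library are given with and without it. The part of this difference in them was not tested.

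The promoters of MT2A, MT1X and SLC30A1 are shown because MTF1 acts through metal response elements in such promoters. RefSeq windows of 300 bases, 250 before and 50 after the annotated start, were available for 4 of the 9 genes (MT1X, MT2A, SLC30A1 and MTF1) on GRCh38.p14. For SLC30A1 no GENCODE 29 transcript of the gene holds the bases just after the RefSeq start, so its positions and number of matches rest on the RefSeq start alone. Capitals mark every match, on either strand, to the core of the metal response element, searched as TGCACNC or TGCGCNC. MT2A (chr16:56608334-56608633, plus strand), MT1X (chr16:56682220-56682519, plus strand) and SLC30A1 (chr1:211579112-211579411, minus strand) read, 5′ to 3′ on the gene's strand:
MT2A: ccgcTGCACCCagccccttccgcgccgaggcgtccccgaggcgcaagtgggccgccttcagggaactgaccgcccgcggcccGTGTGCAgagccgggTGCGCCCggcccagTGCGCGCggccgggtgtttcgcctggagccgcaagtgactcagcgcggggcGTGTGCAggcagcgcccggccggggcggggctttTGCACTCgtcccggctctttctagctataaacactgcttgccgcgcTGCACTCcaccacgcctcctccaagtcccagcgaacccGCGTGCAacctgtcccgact
MT1X: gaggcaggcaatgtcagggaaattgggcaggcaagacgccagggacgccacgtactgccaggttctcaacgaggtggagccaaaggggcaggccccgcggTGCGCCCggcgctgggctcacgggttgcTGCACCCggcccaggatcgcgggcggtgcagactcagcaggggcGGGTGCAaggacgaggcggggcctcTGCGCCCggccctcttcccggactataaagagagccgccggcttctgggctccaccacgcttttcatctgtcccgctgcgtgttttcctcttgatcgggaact
SLC30A1: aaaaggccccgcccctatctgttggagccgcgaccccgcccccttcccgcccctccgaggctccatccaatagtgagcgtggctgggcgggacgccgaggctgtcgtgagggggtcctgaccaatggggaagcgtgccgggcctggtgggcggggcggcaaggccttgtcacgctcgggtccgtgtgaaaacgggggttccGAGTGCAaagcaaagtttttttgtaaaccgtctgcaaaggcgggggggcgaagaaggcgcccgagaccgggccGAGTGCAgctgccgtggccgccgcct

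MT2A held 8 matches, MT1X 4 and SLC30A1 2, and the MTF1 window held 0. Of 35116 promoter windows of this length, 29.6% held at least 1 match, 8.6% at least 2, 0.601% at least 4 and 0.0199% at least 8. In MT1X the matches lay between bases -150 and -47 before the start, and in MT2A they spanned the window from -246 to 37. The core of the hypoxia response element, ACGTG or GCGTG on either strand, was matched 3 times in each of MT2A, MT1X and SLC30A1 and 2 times in MTF1, and 48.4% of all windows held at least 1, 23.1% at least 2 and 10.1% at least 3. In MT1X one of these was ACGTG at -202 to -198, and the others were GCGTG, as were all those of the other 3 genes. In MT2A, 2 of the metal response matches shared bases with a hypoxia response match. A match describes the letters of the reference window only.

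**Figure D1:**
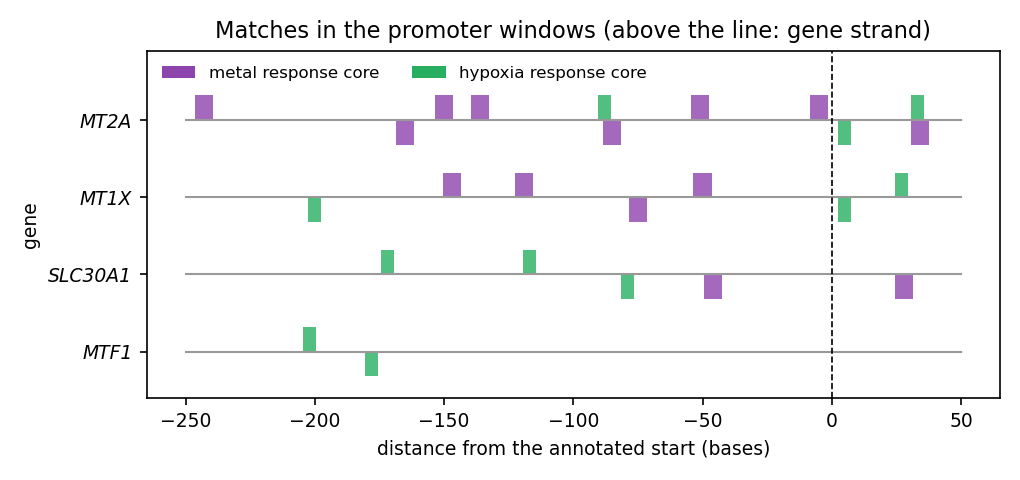
Positions of matches to the core of the metal response element (purple) and of the hypoxia response element (green) in the promoter windows of 4 genes, by distance from the annotated start in bases; bars above a line are on the gene's strand and bars below it on the other. MT2A held 8 metal response matches, MT1X 4, SLC30A1 2 and MTF1 0.

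Whether low oxygen altered the transcripts of metal handling was asked by comparing hypoxia with normoxia over all genes. MT1X and MT1F rose under hypoxia, MTF1 and SLC30A1 fell, and MT2A, by far the most abundant of them, did not pass the test. Counts were compared by edgeR's quasi-likelihood test with Benjamini-Hochberg adjustment over 14255 genes at an adjusted p of 0.05, and CPM are counts scaled to library size after TMM normalization. Of the 5 genes tested, 2 were higher and 2 lower. Among the 14255 genes 39.2% rose and 38.5% fell, so that 77.8% were called in either direction, and a call alone says little about these genes. The groups did not overlap for 4 of the 5 genes, 2 higher and 2 lower, where 80.5% of all genes had no overlap (40.6% higher and 39.9% lower). Their median log2-fold change was 0.099, against 0.023 over all genes tested. In bulk RNA, fewer cells that express a gene and less of its RNA per cell cannot be told apart.

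MT1X encodes a metallothionein of the first class, found in many tissues. Its level was 137, 150.05 and 158 CPM in the hypoxia libraries and 26.9, 25.02 and 33.1 CPM in the normoxia libraries. The groups lay far apart, with the lowest hypoxia library above the highest normoxia library. The mean rose from 28.3 ± 4.22 to 148 ± 10.7 CPM (SD, n = 3), which is 5.23-fold or 2.39 on the log2 scale (standard error 0.085), with an adjusted p of 1.67e-13 by edgeR's quasi-likelihood test. Of all genes tested, 6.04% had a larger increase.

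MT1F, a second metallothionein of the same class, was much less abundant. Its level was 9.04, 10.9 and 9.58 CPM under hypoxia and 3.55, 3.77 and 5.85 CPM under normoxia. The groups did not overlap, and normoxia replicate 3 stood above the other normoxia libraries. The mean rose from 4.39 ± 1.27 to 9.84 ± 0.950 CPM (SD, n = 3), which is 2.25-fold or 1.17 on the log2 scale (standard error 0.17), with an adjusted p of 7.16e-06 by the same edgeR test. Larger increases were found for 17.2% of all genes tested.

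MT2A encodes the metallothionein that usually dominates in human cells. Its level was 447, 476 and 459.7 CPM under hypoxia and 399, 384 and 508 CPM under normoxia. The groups overlapped, since normoxia replicate 3 was the highest of all 6 libraries. The means were 461 ± 14.2 CPM under hypoxia and 430.3 ± 67.6 CPM under normoxia (SD, n = 3), a log2-fold change of 0.099 (95% interval -0.067 to 0.27), which did not pass the quasi-likelihood test of edgeR (adjusted p = 0.257). A rise of up to 0.27 on the log2 scale lies within that interval. The call rested on normoxia replicate 3. Without that library the log2-fold change was 0.22 and the gene was called higher (edgeR, adjusted p = 0.000428), while the other alternatives made no call. Normoxia replicate 3 is the library with the higher NDRG1, CA9 and EGLN3. Without it the log2-fold change was 2.49 for MT1X, 1.41 for MT1F, -0.69 for MTF1 and -1.90 for SLC30A1, with the calls of these 4 genes as before.

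MT1A, MT1E and MT1G were at the limit of counting. MT1A had 1 count in hypoxia replicate 2 and MT1G 1 count in hypoxia replicate 1, with 0 in the other libraries. MT1E had 3, 1 and 1 counts under hypoxia and 0, 6 and 2 under normoxia. A count of 0 allows up to 3 counts, which is 0.0806 to 0.105 CPM depending on the library, and no fold is given for these genes. They were left out by the filter on low counts, and without that filter they were not called. Such limits cover counting error only. Of 14 further metallothionein genes and pseudogenes looked for, MT3 had a row, with at most 1 count in any library.

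**Figure D2:**
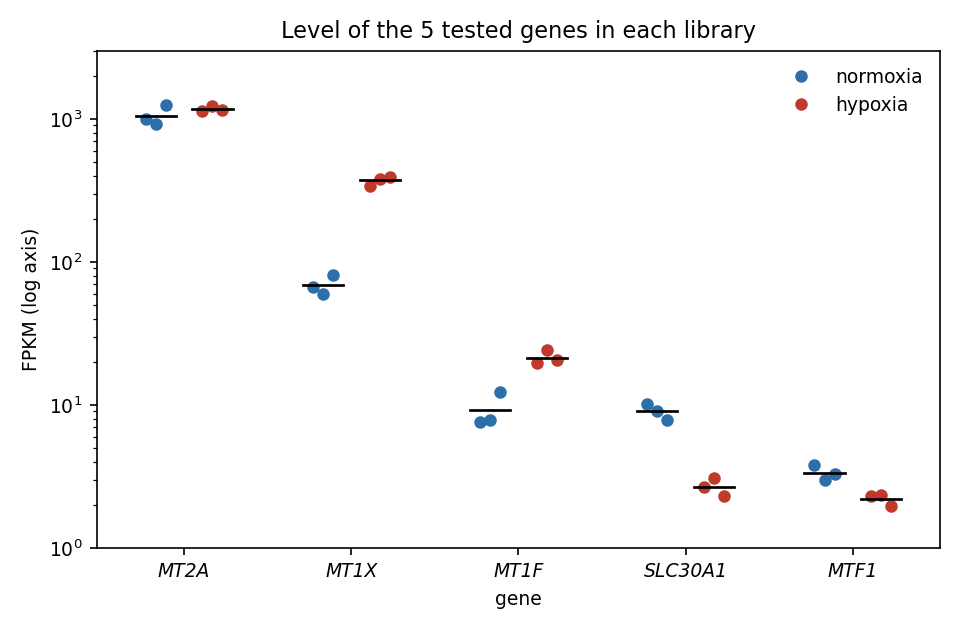
FPKM of the 5 tested genes in each library on a logarithmic axis, with normoxia in blue and hypoxia in red; horizontal bars are the means of 3 libraries. MT1X and MT1F lay higher in all hypoxia libraries and SLC30A1 and MTF1 lower, while the MT2A libraries of both groups overlapped.

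Levels of different genes were compared as FPKM, which take account of the gene's length. The lengths behind the FPKM were 401 bases for MT2A, 404 for MT1X and 467 for MT1F, but 5893 for SLC30A1 and 8872 for MTF1. The order therefore depends on the unit. In CPM, normoxia means were 4.39 for MT1F and 53.9 for SLC30A1. How well such short lengths are corrected was not tested. Under normoxia the order was MT2A at 1056 ± 171, MT1X at 69.0 ± 10.7, MT1F at 9.25 ± 2.69, SLC30A1 at 9.01 ± 1.20 and MTF1 at 3.35 ± 0.424 FPKM (SD, n = 3). The libraries of MT1F and SLC30A1 overlapped, and the other neighbours in this order did not. Under hypoxia the order was MT2A at 1168 ± 49.0, MT1X at 373 ± 26.8, MT1F at 21.4 ± 2.33, SLC30A1 at 2.68 ± 0.377 and MTF1 at 2.20 ± 0.219 FPKM (SD, n = 3). Here SLC30A1 and MTF1 overlapped, and MT1F stood apart from SLC30A1. Among all 21776 genes, MT2A held position 48 under normoxia and 49 under hypoxia by mean FPKM. MT1X moved from position 895 to 137, MT1F from 5078 to 2498 and SLC30A1 from 5158 to 8952.

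The make-up of the metallothionein transcripts therefore differed between the conditions. FPKM were summed over the 6 examined metallothioneins with a row, without MT3. MT1X supplied 6.23%, 6.02% and 6.02% of this sum in the normoxia libraries, and 23.0%, 23.5% and 25.1% in the hypoxia libraries. MT2A supplied 93.1 ± 0.061% under normoxia and 74.8 ± 1.08% under hypoxia (SD, n = 3), and MT1F 0.806 ± 0.106% and 1.37 ± 0.092% (SD, n = 3). MT2A FPKM were 15.3 ± 0.304 times those of MT1X under normoxia and 3.14 ± 0.187 times under hypoxia (SD, n = 3). The normoxia libraries agreed closely in this ratio although replicate 3 held more of both transcripts. In counts, the ratio of MT1X to MT2A rose by 2.28 on the log2 scale (4.87-fold), that of MT1F to MT2A by 1.09 and that of MT1X to MT1F by 1.20. Each of these ratios, and that of SLC30A1 to MTF1, had no overlap between the groups, at the smallest p that 3 libraries against 3 allow (two-sided exact permutation test, p = 0.1, and 0.1 after adjustment over the 4 ratios). Of all single genes tested, 80.5% had no overlap either, and the share among ratios of other gene pairs was not computed. The ratios restate the changes of their single genes and add no separate support. These ratios do not depend on how the libraries were scaled.

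**Figure D3:**
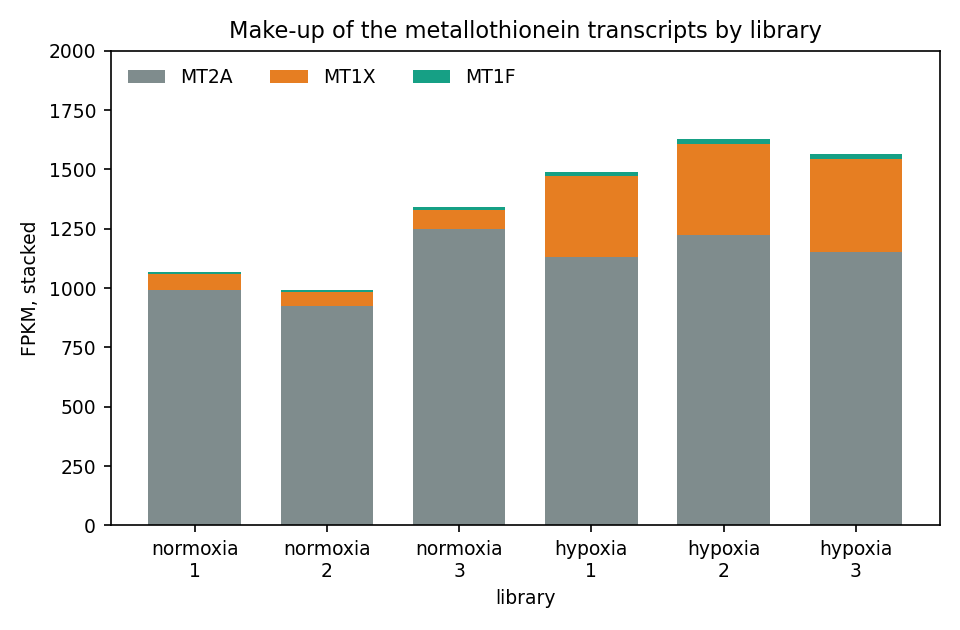
Stacked FPKM of MT2A (grey), MT1X (orange) and MT1F (green) in each library. The MT1X segment made up about 6.02% to 6.23% of the sum in the normoxia libraries and 23.0% to 25.1% in the hypoxia libraries, while the MT2A segment overlapped between the groups.

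Summed over the same 6 metallothioneins, the level was 593, 637 and 627 CPM under hypoxia and 429, 413 and 547 CPM under normoxia. The means were 619 ± 22.8 and 463 ± 73.1 CPM (SD, n = 3), a 1.34-fold difference of 156 CPM, and the groups did not overlap. Without MT2A the sums were 158 ± 11.1 and 32.8 ± 5.41 CPM (SD, n = 3), a 4.82-fold difference. A sum over the metallothioneins is not altered by reads assigned to the wrong copy among them.

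MTF1, the zinc-sensing activator, fell. Its level was 20.1, 20.3 and 17.2 CPM under hypoxia and 33.8, 27.3 and 29.3 CPM under normoxia, with no overlap. The mean went from 30.2 ± 3.34 to 19.2 ± 1.73 CPM (SD, n = 3), which is a change of -0.65 on the log2 scale (standard error 0.094), and passed the quasi-likelihood test of edgeR with an adjusted p of 6.28e-06. Of all genes tested, 20.8% had a larger decrease.

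SLC30A1, the zinc exporter, fell furthest of the 5 genes. Its level was 15.6, 17.5 and 13.5 CPM under hypoxia against 60.2, 54.9 and 46.6 CPM under normoxia. Every hypoxia library was far below every normoxia library. The mean went from 53.9 ± 6.85 to 15.6 ± 1.99 CPM (SD, n = 3), which is 3.47-fold lower or -1.79 on the log2 scale (standard error 0.10), with an adjusted p of 3.37e-11 by the same edgeR test. Larger decreases were found for 1.73% of all genes tested. SLC30A1 and MT1X, whose promoter windows both held metal response matches, moved in opposite directions, while MT2A, with the most matches, did not pass the test. The part of these matches in the levels was not tested. The ratio of SLC30A1 to MTF1 counts fell by 1.15 on the log2 scale.

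The other zinc transporters mostly fell, by less. Most SLC30A proteins move zinc out of the cytosol and most SLC39A proteins move it in. Of 9 further SLC30A genes listed, 6 were tested, of which 0 were higher, 4 lower and 2 not called (edgeR's quasi-likelihood test, against 39.2% and 38.5% of all genes), with a median log2-fold change of -0.43. SLC30A5 (log2-fold change -0.55) and SLC30A6 (-0.59), whose products work as a pair in the secretory pathway, fell together with SLC30A7 (-0.47), an exporter of the Golgi. SLC30A9, of the mitochondria, fell by 0.22 on the log2 scale. SLC30A3, at 38 to 55 counts a library, had a log2-fold change of 0.37 and SLC30A4 one of -0.40, and neither passed the quasi-likelihood test of edgeR (adjusted p = 0.238 and 0.0967). Without normoxia replicate 3, SLC30A4 was called lower by edgeR, with a log2-fold change of -0.58 (adjusted p = 0.0162). SLC30A2 had 1 count in normoxia replicate 2 and 0 in the other libraries. SLC30A2 and SLC30A4 were named after their values were seen.

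Of 14 SLC39A genes, 11 were tested, with 1 higher, 8 lower and 2 not called, against 39.2% higher and 38.5% lower among all genes, and a median log2-fold change of -0.53 against 0.023. The number called in either direction was thus close to the background of 77.8%. SLC39A8, an importer of zinc and manganese, fell from 58.4 ± 6.67 to 25.5 ± 1.45 CPM (SD, n = 3), or -1.20 on the log2 scale (standard error 0.081). SLC39A4, known for zinc uptake in the gut, had a log2-fold change of -0.91 and SLC39A3 one of -0.75. SLC39A11 was the exception, at 90.9, 92.1 and 96.7 CPM under hypoxia against 32.3, 27.7 and 36.6 CPM under normoxia. It rose by 1.53 on the log2 scale (standard error 0.079) and passed the quasi-likelihood test of edgeR with an adjusted p of 1.17e-11. SLC39A1 (213 and 203 CPM, log2-fold change 0.065, adjusted p = 0.251) and SLC39A10 (0.10, adjusted p = 0.271) were not called by that edgeR test. SLC39A1 was called higher under a stricter filter of 10 counts in each library and by limma on the FPKM.

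**Figure D4:**
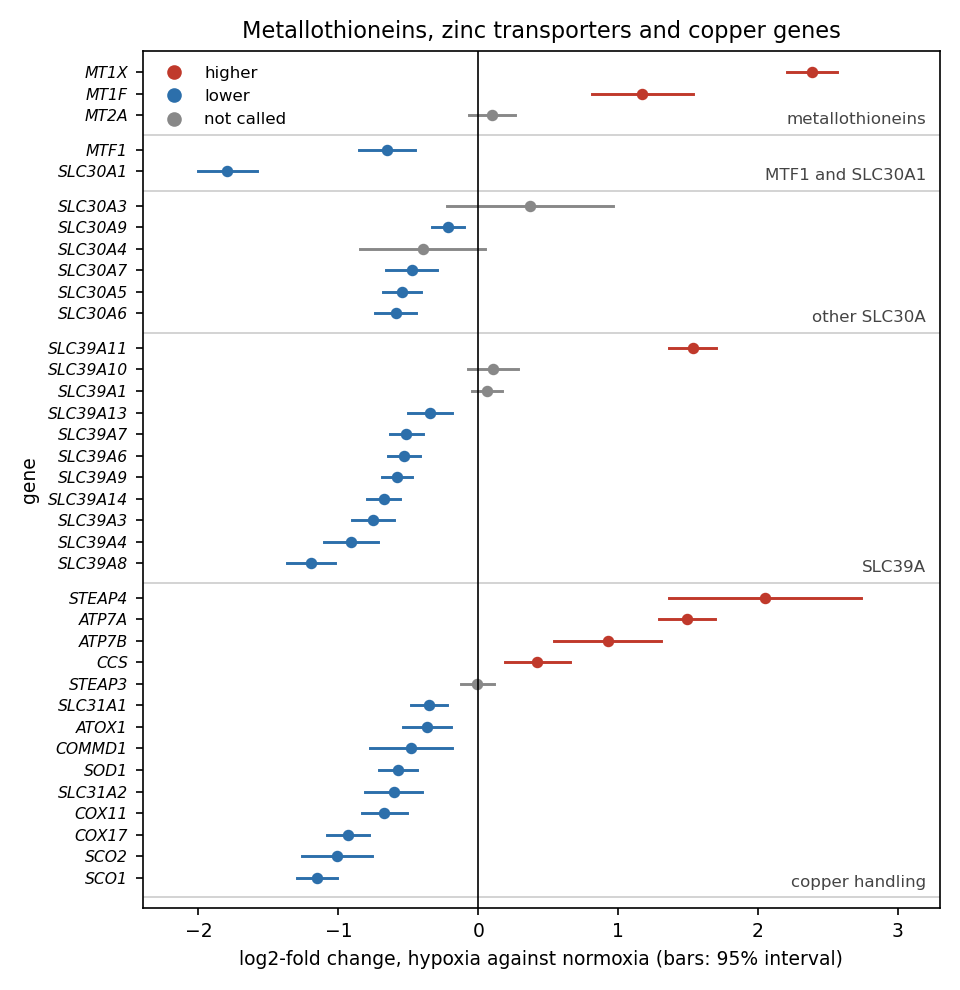
Log2-fold change of hypoxia against normoxia for the tested metallothioneins, MTF1, SLC30A1, the other SLC30A and SLC39A zinc transporters and copper handling genes; bars are 95% intervals, red marks genes called higher, blue lower and grey not called. MT1X (2.39) lay furthest to the right and SLC30A1 (-1.79) furthest to the left.

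Metallothioneins also bind copper, so copper handling genes were listed. Of 14 genes, all tested, 4 were higher, 9 lower and 1 not called, with a median log2-fold change of -0.42. Among all genes 39.2% rose and 38.5% fell, with 77.8% called, so the count alone says little about this list. The genes for the copper-exporting ATPases rose: ATP7A from 9.42 ± 0.712 to 26.5 ± 1.4 CPM (SD, n = 3), a log2-fold change of 1.49, and ATP7B by 0.93 on the log2 scale. STEAP4, a metalloreductase, rose by 2.05 on the log2 scale from a low level of 0.593 ± 0.189 CPM (SD, n = 3). CCS, which delivers copper to superoxide dismutase, rose by 0.42 on the log2 scale, while SOD1 itself had a log2-fold change of -0.58. SCO1 and SCO2, which deliver copper to cytochrome c oxidase, had log2-fold changes of -1.15 and -1.01. COX17 (-0.93) and COX11 (-0.67), which serve the same enzyme, were also called lower. The copper importer gene SLC31A1 fell by 0.35 on the log2 scale. SCO1, SCO2, ATP7A and STEAP4 were named by the size of their change, COX17, COX11, SOD1 and SLC31A1 after their values were seen.

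Metals and oxidants also induce the glutathione, thioredoxin and heat shock genes. Of 13 such genes, 12 were tested, with 2 higher and 10 lower, where 39.2% of all genes rose and 38.5% fell. The median log2-fold change was -1.24 against 0.023 over all genes tested. SLC7A11, the cystine transporter that feeds glutathione synthesis, fell from 113 ± 6.12 to 11.4 ± 0.340 CPM (SD, n = 3), a log2-fold change of -3.31. SRXN1 (-2.41), GCLM (-2.37) and TXNRD1 (-2.31), which serve peroxide repair, glutathione synthesis and thioredoxin reduction, had log2-fold changes of similar size. HMOX1, the heme oxygenase gene induced by cadmium and heme, was higher under hypoxia, at 16.01, 19.2 and 19.4 CPM under hypoxia against 5.80, 5.66 and 4.87 CPM under normoxia. It rose by 1.74 on the log2 scale (standard error 0.12) and passed the quasi-likelihood test of edgeR with an adjusted p of 4.73e-10. DNAJB1, a heat shock cochaperone, rose by 0.35 on the log2 scale. HSPA1A and HSPA1B, nearly identical copies that can exchange reads, both fell, with log2-fold changes of -0.73 and -0.62, and were named after their values were seen.

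Glucocorticoid response genes were listed because the MT2A promoter is a known target of the glucocorticoid receptor. Of 8 genes, 6 were tested, with 5 higher and 1 lower, where 39.2% of all genes rose, 38.5% fell and 77.8% were called. The median log2-fold change was 1.45 against 0.023 over all genes tested. TSC22D3, a leucine zipper protein gene induced by glucocorticoids, rose by 3.56 on the log2 scale, from 3.96 ± 1.19 to 46.8 ± 1.37 CPM (SD, n = 3). KLF9 rose by 2.58 and ERRFI1 by 1.51 on the log2 scale. SGK1, a kinase gene of the same group, fell by 2.53 on the log2 scale, and FKBP5, named after its values were seen, had at most 3 counts in any library.

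Genes with the most similar pattern were ranked by the distance between log2 CPM profiles over the 6 libraries, each centred on its own mean, among 14250 genes. Nearest to MT2A, the most abundant metallothionein, were ATG2A (distance 0.0944), FAM131A, MRPL20-AS1, USP53 and ELMO2, with log2-fold changes between 0.032 and 0.16. The same ranking was added for MT1X and SLC30A1 after their values were seen. Nearest to MT1X were P4HA1 (distance 0.103, log2-fold change 2.42), a subunit gene of collagen prolyl hydroxylase, then CXXC5, FOSL2, SYDE1 and LY6D. Nearest to SLC30A1 were LANCL2 (distance 0.174, log2-fold change -1.68), TDG, LRRC8B, ZBTB24 and NEU3. With most genes differing between the conditions, the distance describes mainly the size of that difference.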

How the data were processed

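RNA-seq libraries of SCC25 cells under hypoxia and normoxia, 3 each, were grouped by their titles. The authors deposited counts, whole numbers of reads per gene without normalization, and FPKM of the same genes, which follow from the counts, the total count and 1 length per gene. The submitters' processing notes list GRCm38 and mm10, which are mouse builds, although the tables hold human symbols and Entrez numbers. The aligner, counter and use of strand are not given in the sources used here, and no gene coordinates are printed other than those of the RefSeq promoter windows.

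Counts were filtered with filterByExpr, normalized by TMM and tested with edgeR 4.0.16 (glmQLFit and glmQLFTest, R 4.3.3) with condition as the only term. The standard error is the log2-fold change divided by the square root of F. Log2 CPM used a prior count of 2. Alternatives used DESeq2 1.42.0, limma 3.58.1 on log2(FPKM + 1) or log2(FPKM + 0.1) for genes whose mean reached 1 FPKM, other filters, the replicate number as a block and each library left out. Motifs were searched with Python 3.11.15. The fits were first tried on simulated data with 200 changed genes among 14209 tested. There edgeR recovered 198 of them, with 4.81% false calls. In the libraries themselves 77.8% of genes were called, so the simulation does not show how the fits behave with so many changes. Replicate pairs were not copies of each other, with a chi-square of 5.11 to 11.5 per gene. The genes and lists were chosen with earlier results of these data known. All 9 genes were named, and from each list at most the 4 largest changes past the threshold without overlap, plus expressed genes of the opposite direction, called or not. Markers served as checks, and other genes are said to be named after their values were seen.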

Additional observations from a re-analysis of the deposited data

How the results depend on the processing

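The number of genes called was 11090, and between 8851 and 11920 over changes of normalization, test, filter and unit. With each library left out in turn, 10669 to 11390 genes were called, 2 to 3 of the examined genes were called higher and 2 lower in each fit, 13 to 14 zinc transporters were called and 13 copper handling genes. MT1X, MT1F, MTF1 and SLC30A1 kept direction and call in every alternative. With each library left out, the log2-fold change ranged from 2.30 to 2.49 for MT1X, from 1.02 to 1.41 for MT1F, from -0.73 to -0.57 for MTF1, from -1.90 to -1.71 for SLC30A1 and from 0.016 to 0.22 for MT2A. The log2 ratio of the summed metallothioneins, 0.42, lay between 0.42 and 0.46 under other scalings and units and between 0.34 and 0.56 with each library left out, and was 2.27 without MT2A, since that gene supplies most of the sum. SLC30A4 was called lower without normoxia replicate 3 (-0.58), and SLC39A1 higher with at least 10 counts in every library (0.14), a filter that moved the log2-fold changes of shared genes up by a median of 0.0775. Samples with the same replicate number had correlations of 0.0175, -0.069 and 0.00122 between their deviations from the group means. Those with different numbers had correlations between -0.0691 and 0.0663. With 3 libraries in each group, these values cannot show whether the numbers mark pairs. With the replicate block 10875 genes were called, and the calls of the 5 tested genes did not change. MT1A, MT1E and MT1G, with at most 6 counts in any library, were tested without the filter on low counts and were not called there.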

Other observations

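The metallothionein genes lie side by side on chromosome 16, and by RefSeq order the run from MT4 to MT1X holds 16 metallothionein genes and pseudogenes. In these libraries 7 of them had a row and 3 (MT2A, MT1F and MT1X) passed 10 counts in any library. The protein-coding neighbours on both sides were also read. OGFOD1, before the run, had 775, 850 and 824 counts in the hypoxia libraries and 3111, 2352 and 2134 in the normoxia libraries, a log2-fold change of -1.69 (adjusted p = 1.2e-12, quasi-likelihood test of edgeR). BBS2, next to MT4, had a log2-fold change of 0.76, and NUP93, next to MT1X, one of -1.06, from 2306, 2643 and 2468 counts against 5838, 4598 and 4306. SLC12A3, beyond NUP93, had at most 1 count in any library and was not tested. Among all genes tested 77.8% were called, so a call alone says little about these neighbours. They were chosen by position, after the values were seen.

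Normoxia replicate 3 had the highest normoxia level of MT2A, MT1X and MT1F alike, with 547 CPM in sum against 429 and 413 CPM. In the same library SLC30A1 was the lowest of the normoxia libraries, at 46.6 CPM. It was also the normoxia library with the most NDRG1, CA9 and EGLN3, at 409, 67.7 and 10.7 CPM, and what part this had in the metallothionein and SLC30A1 levels was not tested.

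Copies of the family share sequence. Of the stretches of 50 bases in the protein-coding GENCODE 29 transcript nearest in length to that of the FPKM, 16% in MT1X, 3.95% in MT2A and 0.272% in MT1F also occur in another metallothionein transcript, and at 100 bases 0% do. These transcripts differ in length from those behind the FPKM, with 581 against 401 bases for MT2A, 450 against 404 for MT1X and 416 against 467 for MT1F, so the shares are those of the transcripts searched. The read length is not given in the sources used here. MT1X also shares 321 exonic bases on the same strand with AC026461.1, which was not analysed here, so reads of these genes cannot be told apart there.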
